A study of Mus musculus with 5 samples.

Results

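The AP-1 genes described here are Fos, Fosb, Fosl1, Fosl2, Jun, Junb, Jund, Atf3 and Maff. They were taken by gene symbol, with earlier results of these data known. All 9 had a row among the 11194 genes of the deposited count table. The counts come from RNA that was precipitated with a rabbit antibody against Staufen1, a binder of double-stranded RNA, from mouse skeletal muscle stem cells, which the series describes as quiescent. 3 libraries came from cells labelled Stau+/+ (wild type 1 to 3) and 2 from cells labelled Stau-/- (knockout 1 and 2). The labels give no age, sex, strain or treatment that would set the groups apart further, do not describe the deleted allele, and do not say whether each library had its own animals, so p-values measure only the spread between these libraries, which may be technical. All 5 libraries are immunoprecipitates, and no input RNA was used here. A higher count can therefore come from more transcript in the cells or from more of it in the precipitate. In bulk samples, fewer cells of a type and less RNA per cell cannot be told apart either.

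AP-1 is a dimer of basic leucine zipper proteins. Jun, JunB and JunD pair with each other or with Fos, FosB, Fosl1 (Fra-1) and Fosl2 (Fra-2), whereas Fos proteins need a Jun partner to bind DNA well. Atf3 is a stress-induced factor that can pair with Jun proteins, and MafF is a small Maf protein that lacks an activation domain and acts through its partners. Fos, Fosb, Jun, Junb, Atf3 and Maff are induced within minutes of a stimulus, from short-lived transcripts. Jund is expressed more steadily. In muscle, Jun and Fos can oppose the activity of MyoD, and muscle stem cells freed from tissue by digestion are known for high Fos and Jun transcripts.

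The libraries differed in depth by a factor of 34.1, from 3091302 counts in knockout 2 to 105473455 in wild type 1, and both knockout libraries were shallower than all wild type libraries. The lowest count of an AP-1 gene was 797 (Fosl2 in knockout 2). Stau1 RNA, which checks the labels, did not differ detectably between the groups (knockout 109.9 ± 1.19 CPM, SD, n = 2, against 116.4 ± 11.4 CPM, SD, n = 3; log2 fold change of wild type over knockout, also called log2 ratio here, 0.08, 95% interval -0.32 to 0.49), so each direction given here rests on the labels. CPM is a count scaled to a fixed library total, with library sizes adjusted by TMM. Pax7 and Myf5 were taken as the markers that define muscle stem cells. Pax7 overlapped between the groups, at 211.3, 263.2 and 241.5 CPM in wild type 1 to 3 and 251.7 and 180.7 CPM in knockout 1 and 2. Myf5 had 46.9, 55.6 and 61.7 CPM in wild type 1 to 3 and 44.0 and 25.1 CPM in knockout 1 and 2. The summed levels of some marker lists differed between the groups. The summed level of 14 muscle stem cell markers was between 5286 and 6106 CPM in wild type and at 3308 and 3601 CPM in knockout, that of 12 endothelial markers between 1419 and 1921 CPM against 3322 and 3046 CPM, and that of 10 markers of fibro-adipogenic progenitors between 2126 and 3013 CPM against 1583 and 1619 CPM. That of 9 muscle fibre markers was 2566 CPM in knockout 2 and between 414.7 and 630.5 CPM in the other 4 libraries, and that of 8 macrophage markers was between 134.8 and 236.1 CPM with overlapping groups. Sdc4, the largest of the 14 muscle stem cell markers, had 2016 ± 281 CPM in wild type and 1052 ± 115 CPM in knockout (SD). Of the 10 fibro-adipogenic markers, 3 were higher in all wild type libraries, against 20.4% of all genes. Another 1, Ly6a, was higher in both knockout libraries, against 18.1% of all genes. Col3a1, the largest of the 10, had 1103 ± 78.8 CPM in wild type and 511 ± 31.9 CPM in knockout (SD), and Pdgfra overlapped between the groups. The defining genes Pecam1 and Cdh5 (endothelium), Pdgfra (fibro-adipogenic progenitors), Acta1 and Ckm (fibres) and Ptprc (blood-derived cells) were above 0 in every library. The part of these cells in the AP-1 levels was not tested.

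None of the 9 AP-1 genes passed the edgeR quasi-likelihood test between the groups, and 7 of the 9 were higher in all wild type libraries than in either knockout library. The count past an adjusted p of 0.05 was 0 of 9 in each direction. Over all genes 2.05% passed, 1.05% as higher in wild type and 1.00% as higher in knockout. At an unadjusted p under 0.05, 5 of the 9 were higher in wild type (Junb, Fosl1, Fos, Maff and Jund), against 10.4% of all genes. Every wild type library exceeded both knockout libraries for 20.4% of all genes, and the opposite held for 18.1% of all genes and for 0 of the 9. The fitted log2 fold change was above 0 for 8 of the 9, against 50.3% of all genes. Its median was 0.55 over the 9 and 0.00317 over all genes. The 9 genes were picked with earlier results of these data known, so these counts describe them and give no independent support.

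The call depended on the tool. DESeq2 placed 4 of the 9 (Junb, Fosl1, Fos and Maff) past an adjusted p of 0.05, where it placed 4.03% of all genes with an adjusted p as higher in wild type. limma-voom placed 0 of the 9 there, with 0.0715% of all genes.

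**Figure D1:**
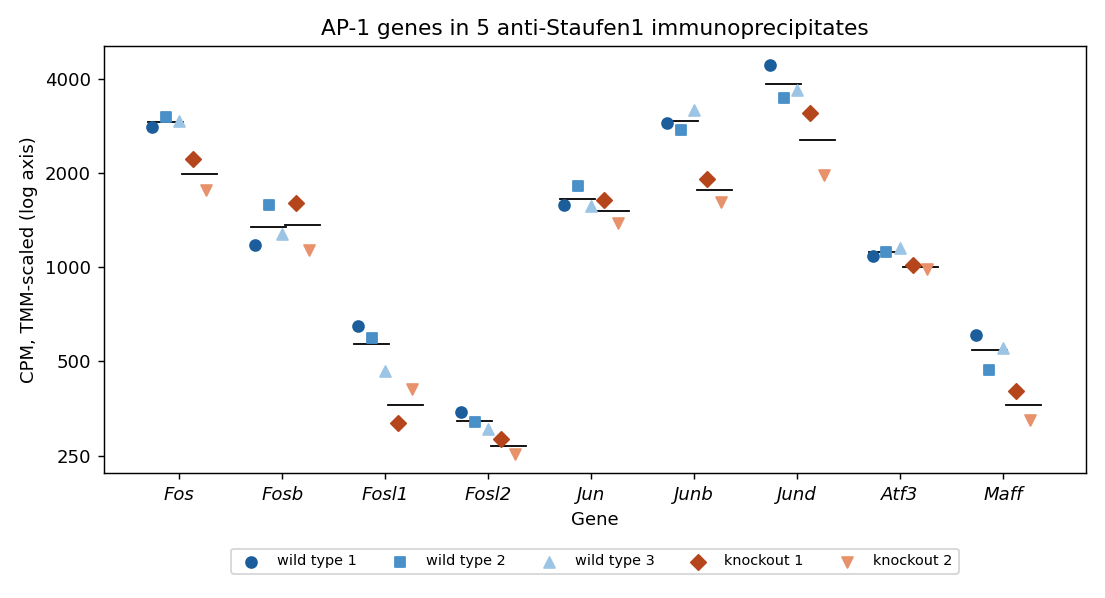
CPM of the 9 AP-1 genes (log axis) in each of the 5 libraries; symbols are libraries and black bars are group means. All wild type libraries lie above both knockout libraries for 7 genes, whereas Fosb and Jun overlap between the groups.

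Junb (chromosome 8, 84976909 to 84978748, minus strand, mm10), whose protein can stand in for Jun in the dimer but activates many promoters less strongly, lay nearest to the threshold. It had 2892, 2750.4 and 3198 CPM in wild type 1 to 3 and 1911 and 1624 CPM in knockout 1 and 2. The lowest wild type library was well above the higher knockout library. Means were 2947 ± 229 CPM (SD, n = 3) and 1767 ± 203 CPM (SD, n = 2). Its fitted log2 ratio was 0.74 (SE 0.18; adjusted p = 0.0508, edgeR), a 1.67-fold difference with a 95% interval of 1.28 to 2.18. Junb passed with genes required to have at least 10 counts in every library (adjusted p = 0.0435, 1.46% of genes called higher in wild type), with a robust dispersion prior (0.0428, 1.20%), with counts thinned to the total of the shallowest library (0.0384, 1.33%) and without wild type 2 (0.0356, 1.57%), all by the same edgeR test. With a library left out its log2 ratio was between 0.63 (without knockout 2) and 0.86 (without knockout 1).

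Jund (chromosome 8, 70697739 to 70700616, plus strand), the steadier Jun family member, had the most counts of the 9 but varied most between the knockout libraries. It had 4429, 3477 and 3703 CPM in wild type 1 to 3, 3128 CPM in knockout 1 and 1968 CPM in knockout 2. Knockout 1 was close to wild type 2, and knockout 2 was far below. Its log2 ratio was 0.60 (SE 0.22; adjusted p = 0.138, edgeR). It was 0.31 without knockout 2 and 0.98 without knockout 1.

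Jun (chromosome 4, 95049034 to 95052222, minus strand), the founding Jun protein, overlapped between the groups. Its level was 1581, 1816 and 1576 CPM in wild type 1 to 3 and 1637 and 1385 CPM in knockout 1 and 2. Only wild type 2 was above knockout 1. The fitted log2 ratio was 0.13 (SE 0.18; adjusted p = 0.723, edgeR), and the 95% interval of the ratio ran from 0.843 to 1.43. A ratio as large as the one fitted for Junb lies outside that interval; whether Jun and Junb differ in their response was not tested, and their ratio within each library is given as values only. Jun, Junb and Jund each occupy 1 exon segment in the table, whereas the other 6 genes have 4. For these intronless genes, reads of spliced and unspliced RNA look alike.

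Fos (chromosome 12, 85473890 to 85477273, plus strand), the prototype Fos protein, had 2805, 3027 and 2949.8 CPM in wild type 1 to 3 and 2215 and 1772 CPM in knockout 1 and 2. The wild type libraries lay close together, at 2927 ± 112 CPM (SD, n = 3), and both knockout libraries were below them, at 1993 ± 313 CPM (SD, n = 2). For Fos the log2 ratio was 0.55 (SE 0.18; adjusted p = 0.104, edgeR), a 1.47-fold difference with a 95% interval of 1.12 to 1.92.

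Fosb (chromosome 7, 19302721 to 19310045, minus strand), whose full-length protein activates transcription and whose splice form lacks that activity, did not follow Fos. It had 1180.5, 1582 and 1282 CPM in wild type 1 to 3 and 1602 and 1136 CPM in knockout 1 and 2. The highest and the lowest of the 5 libraries were both knockout. Its log2 ratio was -0.02 (SE 0.20; adjusted p = 0.966, edgeR), and the 95% interval of the ratio was 0.729 to 1.33. Counts per gene do not separate its splice forms. Its direction turned when single libraries were left out, from -0.25 without knockout 2 to 0.25 without knockout 1.

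Fosl1 and Fosl2 encode the Fos-related antigens, which lack the strong activation domain of Fos. Fosl1 (chromosome 19, 5447703 to 5455945, plus strand) had 650.2, 594.5 and 467.3 CPM in wild type 1 to 3 and 317.8 and 407.5 CPM in knockout 1 and 2. All wild type libraries were higher, and wild type 3 was nearest to knockout. Its fitted log2 ratio was 0.66 (SE 0.20; adjusted p = 0.0922, edgeR). The exons of Fosl1 share 1162 of their 1707 bases with the span of Ccdc85b, and the strand setting of the counting is not given in the sources used here, so reads of these genes may be mixed or lost. Ccdc85b had 165 ± 26.4 CPM in wild type and 120.2 ± 14.4 CPM in knockout (log2 fold change 0.46, edgeR adjusted p = 0.215). Fosl2 (chromosome 5, 32136472 to 32157831, plus strand) had 344.7, 320.8 and 303.8 CPM in wild type 1 to 3 and 282.3 and 253.5 CPM in knockout 1 and 2. Its groups did not overlap but lay close together, at a log2 ratio of 0.27 (SE 0.18; adjusted p = 0.424, edgeR).

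Atf3 (chromosome 1, 191170296 to 191183340, minus strand), the stress-induced partner, varied least between the libraries of a group. It had 1089, 1122 and 1157 CPM in wild type 1 to 3 and 1018 and 989.4 CPM in knockout 1 and 2. The groups did not overlap, yet the log2 ratio was 0.16 (SE 0.17; adjusted p = 0.638, edgeR) and the upper limit of the 95% interval of the ratio was 1.44. Maff (chromosome 15, 79347541 to 79359072, plus strand), the small Maf gene, had 609.4, 469.3 and 553.5 CPM in wild type 1 to 3 and 401.7 and 323.8 CPM in knockout 1 and 2. Wild type 2 and knockout 1 were nearest to each other. For Maff the log2 ratio was 0.58 (SE 0.19; adjusted p = 0.110, edgeR).

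**Figure D2:**
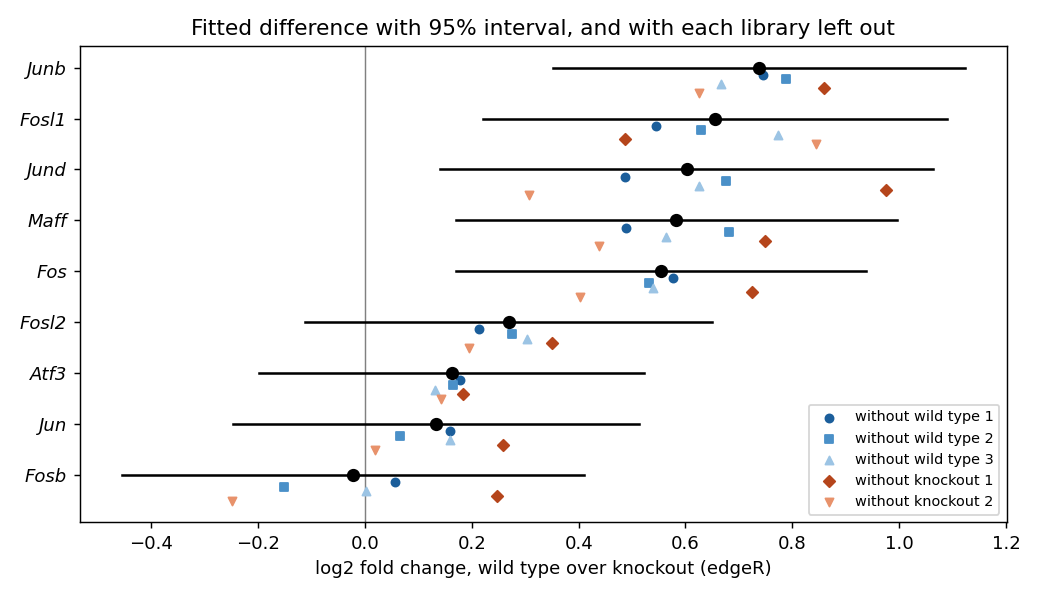
Log2 fold change of wild type over knockout for each AP-1 gene (black point, with the 95% interval as a line) and its value with each library left out (coloured symbols). Junb is at 0.74 and Fosb at -0.02, and Jund moves most, from 0.31 to 0.98, with the knockout library that is left out.

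Knockout 2 was below knockout 1 for 8 of the 9 genes and above it for 1, Fosl1, while 49.4% of all genes were lower in knockout 2. The summed AP-1 level was 12512 CPM in knockout 1 and 9858 CPM in knockout 2, against 15583, 15158 and 15190.2 CPM in wild type 1 to 3. The 9 genes took 1.53%, 1.47% and 1.54% of all counts in wild type 1 to 3, 1.27% in knockout 1 and 1.00% in knockout 2. Without knockout 2, the median log2 fold change of the 9 was 0.31, and 2 of the 9 were higher in wild type at an unadjusted p under 0.05, against 9.76% of all genes in that fit. Knockout 2 was also the shallowest library and the one with the high fibre marker level given earlier. The part of either in its lower AP-1 levels was not tested. Without knockout 1 the median was 0.49, with 4 of the 9 higher in wild type at an unadjusted p under 0.05, against 11.5% of all genes in that fit.

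**Figure D3:**
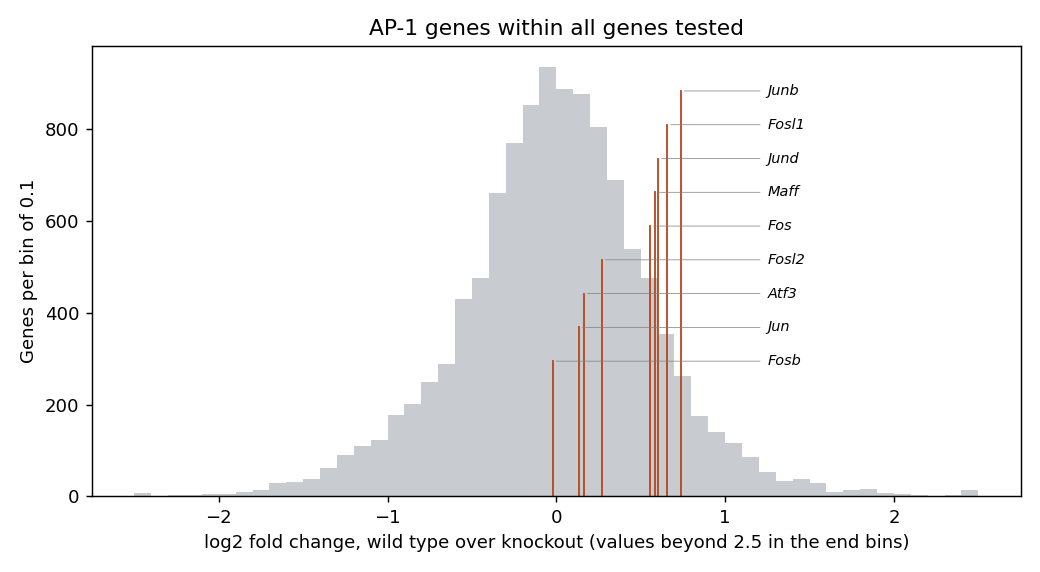
Histogram of the log2 fold change of all 11194 genes in bins of 0.1, with a red line at the value of each AP-1 gene; the height of a line serves only to separate the labels. 8 of the 9 lines lie right of 0 and Junb, the outermost, lies at the 92.1 percentile of all genes.

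Levels of different genes were compared per kilobase of exon, as CPM per kb. By this measure Junb, Jund and Fos had the highest AP-1 levels in every library. These are levels in the precipitates, and the order within them depends on the division by length. By CPM, Jund was above Junb in every library. In wild type they had 1602 ± 124, 1345 ± 173 and 1245 ± 47.7 CPM per kb (SD, n = 3), and in knockout 960.4 ± 110.2, 885 ± 285 and 847 ± 133 CPM per kb (SD, n = 2). The ranges of Junb and Jund overlapped in both groups, and so did those of Jund and Fos. Fos was above Atf3 (566 ± 17.1 CPM per kb in wild type) in all 5 libraries without overlap.

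Atf3 and Jun (519.8 ± 42.9 CPM per kb in wild type) had overlapping ranges. Jun was above Fosb (359 ± 55.7 CPM per kb in wild type) in all libraries. Fosb and Fosl1 (334 ± 54.9 CPM per kb) overlapped in wild type but not in knockout, where Fosl1 was at 212 ± 37.1 CPM per kb. Fosl1 and Maff (257 ± 33.3 CPM per kb in wild type) overlapped in both groups. Fosl2, at 55.2 ± 3.51 CPM per kb in wild type and 45.8 ± 3.48 CPM per kb in knockout, was the lowest in every library. Its mean level per kb over the 5 libraries still lay at the 89.4 percentile of all genes, and that of Junb at the 99.7 percentile.

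Junb, Jund and Fos also took the largest shares of the summed AP-1 level per kb within each library. Junb made up 25.5 ± 1.89% of the summed level per kb in wild type (SD, n = 3) and 21.6 ± 0.788% in knockout (SD, n = 2), lower in both knockout libraries than in any wild type library. Fos made up 19.8 ± 1.10% and 19.0 ± 0.120%. The shares of Fosb (5.73 ± 0.989% against 8.11 ± 0.742%), Jun (8.28 ± 0.819% against 10.6 ± 0.357%), Atf3 (9.01 ± 0.369% against 11.4 ± 1.502%) and Fosl2 (0.878 ± 0.0485% against 1.03 ± 0.0777%) were larger in both knockout libraries than in any wild type library. These are the genes with fold changes nearest to 0, and shares sum to a whole, so a fall in one share raises the others. The Fos family genes together had 0.577 ± 0.0592 of the summed Jun family level in wild type and 0.638 ± 0.0433 in knockout, with overlapping libraries.

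**Figure D4:**
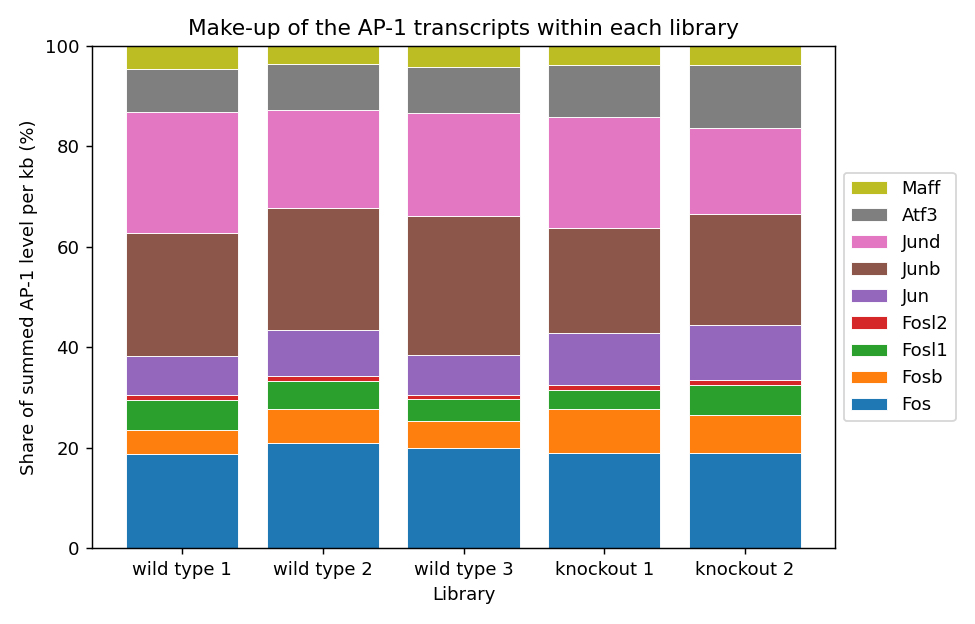
Share of each AP-1 gene in the summed AP-1 level (CPM per kb) of each library, in percent. Junb, Jund and Fos make up most of every bar, and the shares of Fosb, Jun, Atf3 and Fosl2 are larger in both knockout bars than in the wild type bars.

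The promoters of 4 members are shown because they pair genes of one family with unlike values: Junb with Jun, and Fos with Fosb. Each sequence runs from 250 bases before to 50 bases after the RefSeq start (GRCm38.p6), 5′ to 3′ on the strand of the gene. They lie at chr8:84978699-84978998 (minus strand, Junb), chr4:95052173-95052472 (minus strand, Jun), chr12:85473640-85473939 (plus strand, Fos) and chr7:19309996-19310295 (minus strand, Fosb). Capitals mark matches to the AP-1 site TGANTCA, the CRE-like site TGACNTCA, the CRE half-site TGACG, the TATA box letters TATAA, the letters CCAAT and the CArG box bound by serum response factor, searched on both strands.
Junb: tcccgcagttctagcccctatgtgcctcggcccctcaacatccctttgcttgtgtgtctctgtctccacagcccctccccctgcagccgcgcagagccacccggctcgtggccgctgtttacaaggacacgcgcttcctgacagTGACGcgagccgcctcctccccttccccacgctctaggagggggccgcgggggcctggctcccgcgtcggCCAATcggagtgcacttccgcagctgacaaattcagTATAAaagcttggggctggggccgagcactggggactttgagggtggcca
Jun: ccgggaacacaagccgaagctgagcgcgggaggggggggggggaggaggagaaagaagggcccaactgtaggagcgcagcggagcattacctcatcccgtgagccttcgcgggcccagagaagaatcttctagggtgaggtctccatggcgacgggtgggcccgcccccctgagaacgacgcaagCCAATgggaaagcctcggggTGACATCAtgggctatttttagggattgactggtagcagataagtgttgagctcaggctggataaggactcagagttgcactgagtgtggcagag
Fos: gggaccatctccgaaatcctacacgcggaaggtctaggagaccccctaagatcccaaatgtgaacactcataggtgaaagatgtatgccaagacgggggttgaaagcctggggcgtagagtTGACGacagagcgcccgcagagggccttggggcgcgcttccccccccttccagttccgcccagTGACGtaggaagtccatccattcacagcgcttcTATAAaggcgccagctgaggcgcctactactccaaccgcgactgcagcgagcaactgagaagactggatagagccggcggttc
Fosb: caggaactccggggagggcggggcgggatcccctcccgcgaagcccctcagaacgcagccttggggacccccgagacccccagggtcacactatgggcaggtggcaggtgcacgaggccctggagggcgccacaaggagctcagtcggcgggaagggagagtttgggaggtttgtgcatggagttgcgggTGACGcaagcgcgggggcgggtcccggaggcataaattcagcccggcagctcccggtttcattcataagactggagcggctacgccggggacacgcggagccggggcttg

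The Jun window held 1 CRE-like match, TGACATCA at bases -45 to -38 from the start, and 1 CCAAT match. The Junb window held TGACG at -106 to -102, CCAAT at -36 to -32 and TATAA at the annotated start. The Fos window held TGACG at -129 to -125 and at -66 to -62, and TATAA at -33 to -29. The only match in the Fosb window was TGACG at -60 to -56. RefSeq promoters were found for 8 of the 9 genes, and Fosl1 had no entry. Among the 8, TGANTCA was in 0 windows, TGACNTCA in those of 2 genes (Jun and Maff), TGACG in 5 (Fos, Fosb, Junb, Atf3 and Maff), TATAA in 2 (Fos and Junb), CCAAT in 3 (Jun, Junb and Atf3) and the CArG box in 0. Of 32841 promoters of that length, 7.81% held TGANTCA, 8.83% TGACNTCA, 20.8% TGACG, 24.9% TATAA, 37.4% CCAAT and 1.63% the CArG box. Maff has several annotated starts and so several windows. In one of them both TGACG matches lie within the TGACNTCA match, and in another TGACG at -122 to -118 lies apart from TGACNTCA at -45 to -38. A match describes letters and not a bound site. Bases more than 250 before the start were not searched, so a count of 0, as for the CArG box, describes the windows only.

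For these pairs the values within each library were set side by side, because such a ratio does not depend on the scaling between libraries. The level of Junb per kb over that of Jun was 3.17, 2.63 and 3.52 in wild type 1 to 3 and 2.02 and 2.03 in knockout 1 and 2. Fos over Fosb was 3.79, 3.05 and 3.67 in wild type and 2.21 and 2.49 in knockout. Both ratios were higher in all wild type libraries. The pairs were picked for their unlike values, so these ratios restate that choice and give no separate support. Of the 8 genes other than Jun, 5 (Fos, Fosl1, Junb, Jund and Maff) had a higher ratio to Jun in every wild type library than in both knockout libraries, against 10.9% of all genes. The opposite held for 0 of the 8 and for 24.6% of all genes. The 5 are the genes given earlier with an unadjusted edgeR p under 0.05, and Jun itself had a fold change near 0. This count therefore largely restates their fold changes and gives no separate support either. Jund over Jun was 3.10, 2.12 and 2.60 in wild type 1 to 3 and 2.12 and 1.57 in knockout 1 and 2, so the nearest libraries all but met. The same held for Fosl1 over Jun, at 0.768, 0.612 and 0.554 in wild type 1 to 3 and 0.363 and 0.5495 in knockout 1 and 2. The ratios of Fosb, Fosl2 and Atf3 to Jun overlapped between the groups.

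By the root mean square difference of log2 CPM, centred on each gene's mean over the 5 libraries, the member nearest to Fos was Junb (0.123), Jund and Maff were nearest to each other (0.126), and Jun and Atf3 were nearest to each other (0.102). Fosb and Fosl1 were farthest apart (0.472). Among 10300 other named genes with at least 10 counts in every library, the nearest to Fos were Ptbp1 (0.0153), Mtrr (0.0230) and Zbtb25 (0.0451), and 65 genes lay within 0.1. The nearest to Jun were Ppp1r37 (0.0295), Ppil4 (0.0326) and Phc1 (0.0348), with 181 genes within 0.1. The nearest to the median pattern of the 9 were Echs1 (0.0435), Psmc2 (0.0471) and P3h3 (0.0475), with 149 genes within 0.1. Each distance rests on 5 libraries only. Mtrr and Zbtb25 had low levels, with means of 9.53 and 6.69 CPM in knockout.

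Of 25 measured relatives with a basic leucine zipper, 1 was higher in wild type, 0 were lower and the other 24 did not pass; the list had a median of 0.10 on the log2 scale. Over all genes, 1.05% were called higher in wild type and 1.00% lower. This list and the lists that follow were chosen with earlier results of these data known. Their counts describe them and give no independent support. The called gene was Cebpb, a factor of stress and inflammatory responses. It had 3560, 2244 and 2604 CPM in wild type 1 to 3 and 1455 and 1362 CPM in knockout 1 and 2, a log2 ratio of 0.99 (SE 0.21; adjusted p = 0.0314, edgeR). All wild type libraries were higher, but the call was lost when any one library other than wild type 2 was left out (adjusted p up to 0.108). Jdp2, a repressor that pairs with Jun proteins, was second by p, with 167 ± 49.4 CPM (SD, n = 3) against 94.3 ± 2.55 CPM (SD, n = 2) and an edgeR adjusted p of 0.0753.

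Of 33 measured kinases and promoter-bound activators upstream of Fos and Jun, 0 were higher in wild type, 1 was higher in knockout and the other 32 did not pass. Their median log2 fold change was -0.00570. Over all genes, 1.00% were called higher in knockout. Elk3, a ternary complex factor that acts with serum response factor on promoters such as that of Fos and is abundant in endothelium, was the called gene. It had 28.5, 34.3 and 22.7 CPM in wild type 1 to 3 and 67.0 and 68.1 CPM in knockout 1 and 2, a log2 ratio of -1.25 (SE 0.23; adjusted p = 0.0189, edgeR). It was higher in both knockout libraries, as was the summed level of the endothelial markers given earlier, whose part in it was not tested. Elk3 exons overlap Cdk17 and a noncoding gene, and the call was lost without wild type 1 and without wild type 3 (adjusted p up to 0.0810). The p38 kinase gene Mapk12 had 15.8 ± 3.52 CPM against 31.2 ± 6.73 CPM (edgeR adjusted p = 0.0847). Of 11 measured genes that act on the turnover or activity of Jun and Fos proteins, 0 passed either way, and the median was -0.04. An unadjusted edgeR p under 0.05 was reached by 0 of the 11, and by 2286 of all 11194 genes in either direction. Hdac3, a co-repressor deacetylase, had the smallest p, at a log2 fold change of -0.46 (edgeR adjusted p = 0.270).

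Of 28 measured genes described as AP-1 targets in other cells, 4 were higher in wild type, 0 were lower and the other 24 did not pass; the median log2 ratio was 0.14. The same test called 1.05% of all genes higher in wild type, and 1.00% in the opposite direction. The target list too was chosen with earlier results of these data known, so its counts give no independent support. Ccl2, a chemokine that draws monocytes, had 238.5, 124.3 and 163.6 CPM in wild type 1 to 3 and 63.9 and 60.4 CPM in knockout 1 and 2. Lif, a cytokine of the interleukin-6 family, had 38.3, 26.8 and 22.4 CPM in wild type and 10.8 and 9.86 CPM in knockout. Wild type libraries were higher throughout for both, with log2 ratios of 1.496 (SE 0.26; adjusted p = 0.0143, edgeR) for Ccl2 and 1.49 (SE 0.33; adjusted p = 0.0376, edgeR) for Lif. Ccnd1, which encodes cyclin D1, had 29.2 ± 2.32 against 10.9 ± 4.67 CPM (log2 fold change 1.36, edgeR adjusted p = 0.0457), and 818 of its exon bases lie within LTO1. Plaur, the urokinase receptor, had 200.0 ± 34.1 against 109.6 ± 8.79 CPM (0.87, edgeR adjusted p = 0.0459).

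Each of these 4 calls was lost in some fit with a library left out, while all 4 log2 ratios stayed above 0. Ccl2 was lost without knockout 2 (edgeR adjusted p = 0.0593), and its log2 ratio with a library left out lay between 1.20 and 1.69. Lif and Plaur were each lost when any one library other than wild type 2 was left out, and Ccnd1 when any one other than knockout 1 was (edgeR adjusted p up to 0.163). Their log2 ratios in these fits lay between 1.24 and 1.64 for Lif, 0.75 and 1.00 for Plaur, and 1.04 and 1.94 for Ccnd1. With all libraries, Plaur was lost with RLE factors, with total counts and after thinning, and Ccnd1 with upper-quartile factors and with total counts; limma-voom called none of these 4, nor Cebpb or Elk3. Matrix-cleaving Mmp14 had 171 ± 10.6 against 106 ± 35.96 CPM (edgeR adjusted p = 0.0976), and the other listed targets, such as Vim (0.17), Timp1 (-0.01), Il6 (-0.07) and Hmox1 (-0.17), are given by their log2 fold changes and did not pass.

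**Figure D5:**
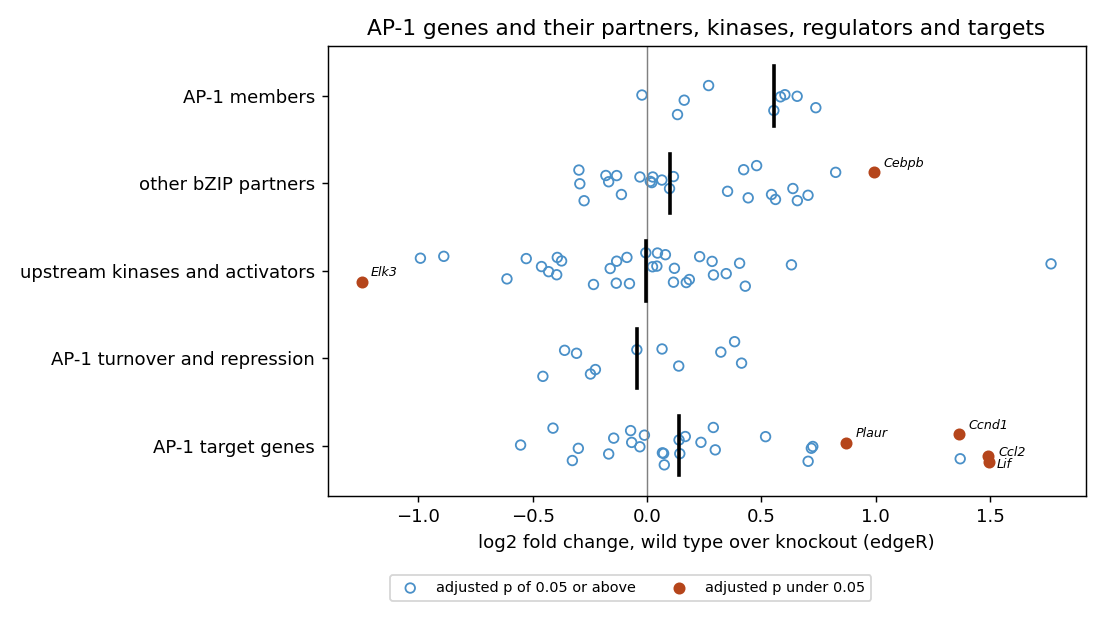
Log2 fold change of the AP-1 genes and of 4 lists of related genes; each circle is a gene, filled where the edgeR adjusted p is under 0.05, and black bars are list medians. The AP-1 median of 0.55 lies right of the medians of the other lists, and vertical scatter within a row has no meaning.

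In the marker lists, the genes that passed were Sdc4, Myod1 and Msc of 14 for muscle stem cells, all higher in wild type, and Fabp4, Egfl7, Flt1, Ly6c1, Aqp1 and Emcn of 12 for endothelium, all higher in knockout. Col3a1 and Col1a1 were higher in wild type and Ly6a in knockout among 10 for fibro-adipogenic progenitors. Casq1 was higher in knockout among 9 for fibres, and 0 of 8 passed for macrophages. Over all genes, 1.05% passed as higher in wild type and 1.00% as higher in knockout. Next by p were Mylpf of the fibre list, which had 20.3 ± 1.98 CPM in wild type and 20.1 and 130.7 CPM in the 2 knockout libraries (edgeR adjusted p = 0.0613), and the complement genes C1qa (0.0988) and C1qc (0.347) of the macrophage list. The list medians were 0.63, -0.88, 0.53, -1.33 and 0.07 in that order. With each library left out in turn, Fabp4 was called every time and Emcn never. Sdc4 and Msc were called only without wild type 2, and Col1a1 was called once. Myod1, Ly6c1, Aqp1, Ly6a and Casq1 were called in 2 of the 5 fits, and Egfl7, Flt1 and Col3a1 in 3.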

How the data were processed

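RNA from anti-Staufen1 precipitates of muscle stem cells was sequenced as paired-end 101 bp reads after oligo(dT) priming, per the labels' protocols. Trim Galore, STAR, featureCounts of Subread, edgeR and the mm10 genome are named in the submitters' processing notes; for the versions, the annotation release and the use of strand, the sources used here give nothing. The authors deposited raw counts per gene for 11194 genes, with exon coordinates and gene length. The values show an expression filter before deposit: the third-highest CPM of a gene was never below 3.00. The 3 wild type libraries alone could meet such a filter, but the 2 knockout libraries alone could not. Shares over all genes by direction come from this filtered set. Totals ran from 3091302 to 105473455 counts. Libraries were grouped by title.

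Counts were fitted over all genes in R 4.3.3 with edgeR 4.0.16 (filterByExpr, which removed 0 genes, TMM, estimateDisp, then glmQLFit with glmQLFTest, two-sided, Benjamini-Hochberg over all genes, threshold 0.05). Fold changes are wild type over knockout. The SE was derived as the absolute log2 fold change over the square root of the F statistic of the test. The 95% intervals use that SE and the t distribution with the total degrees of freedom of the fit. Shares, ratios and distances are values without a test. No pair of same-group libraries agreed within sampling noise (chi-square per degree of freedom 17.7 to 258.5). Scripts were tested on simulated counts. RLE, upper-quartile and total-count scaling, DESeq2 1.42.0, limma-voom (limma 3.58.1), other filters, a robust prior, thinning, a replicate block and leaving out each library were tried. The members and lists were chosen with earlier results of these data known. The text names all members, of each list those past the threshold (up to 6) and the 2 with the smallest p, and 3 nearest genes for Fos, Jun and the median pattern; Vim, Timp1, Il6, Hmox1 and Mmp14 were chosen after their values were seen. A gene that this rule would name is not reported here.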

Additional observations from a re-analysis of the deposited data

How the results depend on the processing

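The log2 fold changes of Fos, Fosl1, Fosl2, Jun, Junb, Jund, Atf3 and Maff were above 0 in all 15 settings tried. That of Fosb, -0.02, was above 0 with a replicate block (0.0179) and when wild type 1 (0.0566), wild type 3 (0.00225) or knockout 1 (0.247) was left out, and lowest when knockout 2 was left out (-0.249). The number of AP-1 genes called higher in wild type, 0 as reported, was 4 with DESeq2, 1 with at least 10 counts in every library, 1 with a robust prior, 1 after thinning and 1 with the replicate block (Fosl1, adjusted p = 0.0155), and between 0 and 1 with a library left out. None was called higher in knockout in any of the 15. Over all genes, the 118 calls higher in wild type became 434 with DESeq2, 8 with limma-voom and 288 with the replicate block, and 11 to 176 with a library left out. The 112 higher in knockout became 466, 14 and 324, 173 after thinning, and 23 to 172 with a library left out. Replicate numbers were treated as names of libraries only. Deviations from the group means correlated at 0.0492 for number 1 and 0.0391 for number 2, and wild type 3 has no partner. With 2 knockout libraries, whose deviations mirror each other, these values are not independent. They cannot show whether libraries of one number were prepared together. The settings for called genes of the other lists were applied after the data were seen; these genes kept their direction in all of them, and limma-voom called only Fabp4 and Col3a1 of them. Counts per kb over their sum differ from CPM per kb by a constant within each library, so that alternative could not change the order of levels and tests nothing.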
